A study of Drosophila melanogaster with 18 samples.

Results

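The genes described here mark the somatic cells of the fly testis, the hub and the cyst lineage. They are 10 genes chosen by name for those cells (hh, Fas3, esg, tj, zfh1, chinmo, eya, so, ptc and Egfr), of 17575 genes in the files, and all 10 were among the 14059 genes with enough counts to test. Total RNA was sequenced from testes of adult Drosophila melanogaster males aged 1 to 3 days. The modulo mutant carried modL8 over mod07570, and the control carried mod07570 over a wild-type chromosome, so both genotypes shared the mod07570 allele and the control, titled wt in the labels, was a heterozygote. Each genotype had 3 replicates, each sequenced in 3 lanes that were summed.

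The hub is a small cluster of non-dividing somatic cells at the testis tip, and it holds germline stem cells and cyst stem cells around it. It secretes Unpaired, which activates the JAK-STAT pathway, and Hedgehog, which acts on the cyst stem cells. Daughters of the cyst stem cells leave the hub as cyst cells, wrap the dividing germ cells, and receive EGF signals from the germline that are needed for that wrapping.

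Modulo, the fly homolog of the nucleolar protein Nucleolin, is encoded by mod. Normalized counts of mod, meaning counts scaled to a common library size, were 196, 182 and 121 in mutant testes, against 2063, 1963 and 2109 in control testes. This was a log2 fold change of -3.62 (SE 0.18; edgeR quasi-likelihood test, adjusted p = 4.1e-05), in the direction the labels give. Total counts lay between 90898270 and 107435749 in mutant libraries and between 87119206 and 94915990 in control libraries. Raw counts of the 10 genes ran from 328 (esg, mutant) to 23768 (chinmo, mutant), so no gene sat near the limit of detection. Whole testes were sequenced, in which germ cells greatly outnumber somatic cells.

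Across all tested genes, 32.3% passed an adjusted p of 0.05, with 14.5% higher and 17.8% lower in the mutant. Of the 10 hub and cyst genes, 1 was higher (tj), 2 were lower (hh and Fas3) and 7 did not pass. That is a share near the background of the whole table, so the count by itself is no result about these genes. The median log2 fold change was -0.11 over the 10 genes and 0.02 over all tested genes. Values of both genotypes did not overlap for 4 of the 10 genes (tj above, hh, Fas3 and ptc below), against 47.3% of all tested genes (23.2% above and 24.1% below). DESeq2 and limma-voom each called 1 gene higher and 2 lower.

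**Figure D1:**
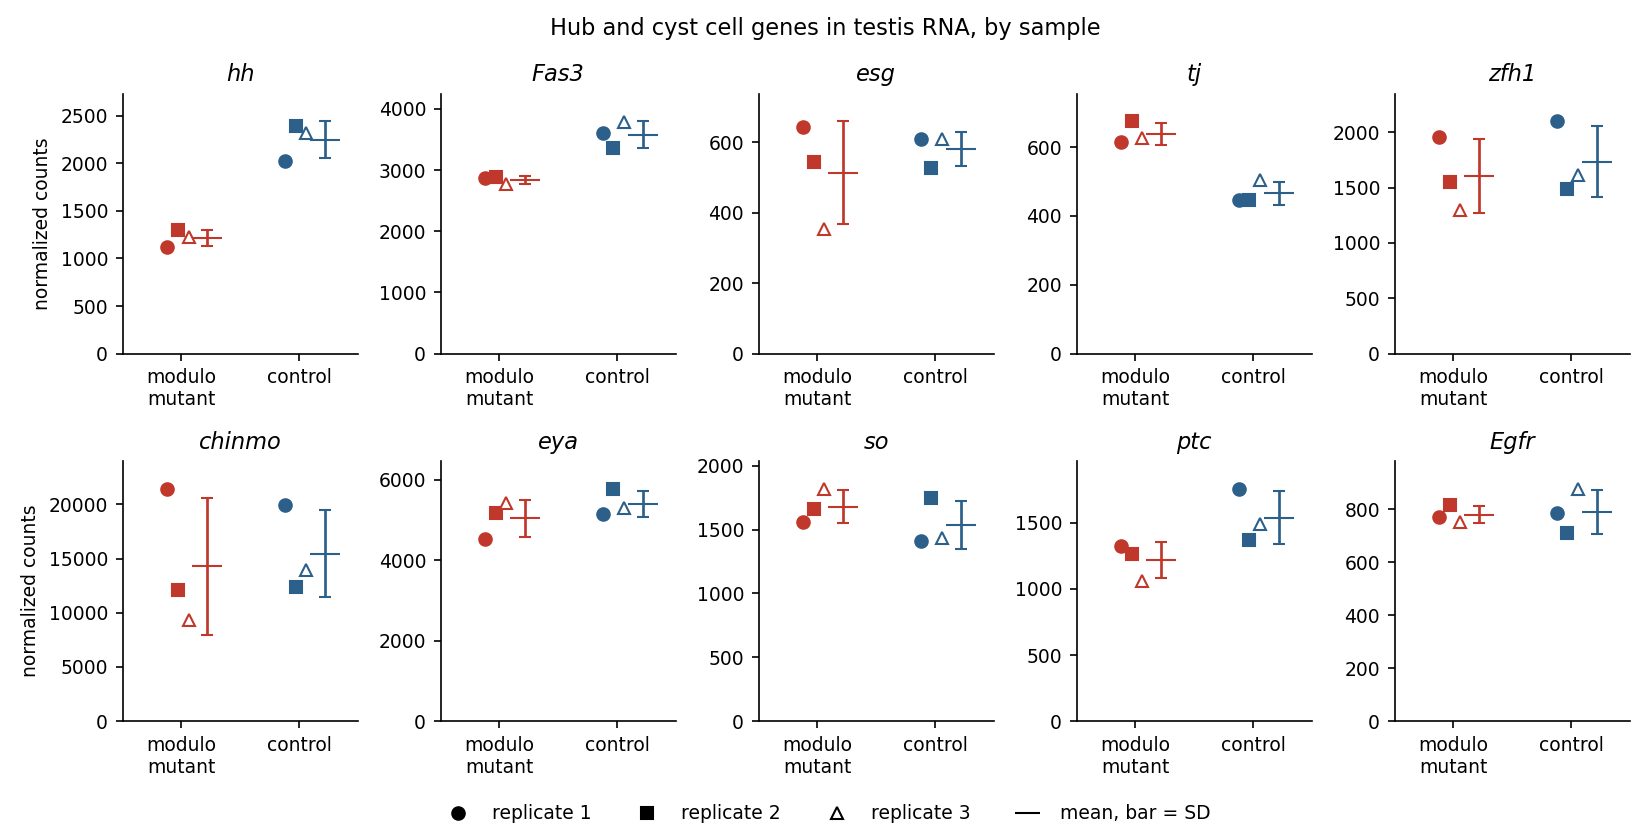
Normalized counts of the 10 genes in every library (vertical axes), with mutant libraries left of control libraries; each point is 1 replicate and the bars give the mean and SD of 3. The 3 mutant values of hh (1126 to 1299) all lie below the 3 control values (2026 to 2395), whereas those of tj (615 to 675) all lie above (445 to 505).

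Of the hub genes, hh encodes the secreted ligand Hedgehog and lies on 3R at positions 23128169 to 23141906 of the BDGP6 (dm6) assembly, on the minus strand. Its normalized counts were 1126, 1299 and 1221 in mutant testes, against 2026, 2395 and 2316 in control testes. Every mutant library was below every control library. The mean was 1216 ± 87.0 in the mutant and 2246 ± 194 in the control (SD, n = 3 each), and hh fell by 0.89 on the log2 scale (SE 0.10, edgeR adjusted p = 0.000882). The fold of 0.541 had a 95% interval of 0.459 to 0.638. Between libraries of the same replicate number, the differences were -0.85, -0.88 and -0.92 (log2). The call held in all 21 alternative analyses, in which the difference ranged from -0.96 to -0.83. In RNA from whole testes, fewer cells of a type and less RNA per cell cannot be told apart. Nor can hub cells be told apart from other testis cells as the source of the hh counts.

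Fas3 encodes Fasciclin 3, an adhesion protein of the immunoglobulin superfamily that is the usual marker of hub cell borders, and lies on 2L at 18320102 to 18393441, plus strand. Normalized counts were 2871, 2892 and 2766 in mutant testes, against 3601, 3355 and 3784 in control testes, again without overlap. Fas3 fell by 0.33 on the log2 scale (SE 0.079, edgeR adjusted p = 0.0181), a fold of 0.794 with a 95% interval of 0.698 to 0.904. Its exons span 6612 bases, and libraries differed in their trend over gene length. With that trend removed the Fas3 difference was -0.19 (adjusted p = 0.207), so the call depends on it. The call was also lost without mutant replicate 2 (adjusted p = 0.0776), mutant replicate 3 (0.0602), control replicate 1 (0.0573) or control replicate 3 (0.0813), with the log2 difference between -0.38 and -0.30 when any single library was left out.

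esg, on 2L at 15333866 to 15336138 (plus strand), encodes Escargot, a Snail-family zinc finger factor found in the hub and stem cells. It had normalized counts of 643, 544 and 355 in mutant testes, against 609.9, 526 and 611 in control testes. The mutant values lay on both sides of the control values. The log2 difference was -0.18 (SE 0.21, edgeR adjusted p = 0.556) and the 95% interval of the fold was 0.628 to 1.25, wide enough to hold a fall as large as that of Fas3. Without mutant replicate 3, which held the lowest value, the difference was 0.03.

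Next come the transcription factors of the cyst stem cells and early cyst cells. tj encodes Traffic jam, a large Maf factor of cyst stem cells and early cyst cells, and lies on 2L at 19464267 to 19467758, plus strand. Normalized counts were 615, 675 and 628 in mutant testes, against 445, 447 and 505 in control testes, so each mutant library exceeded each control library. The mean was 639 ± 31.6 in the mutant and 466 ± 34.3 in the control (SD, n = 3 each), a log2 difference of 0.46 (SE 0.093, edgeR adjusted p = 0.0102). The fold was 1.37, with a 95% interval of 1.18 to 1.60. The call was lost in lane 1 alone (0.35, adjusted p = 0.0643) and without mutant replicate 2 (0.41, adjusted p = 0.0554).

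zfh1 encodes a zinc finger and homeodomain repressor that keeps cyst stem cells in the stem state, and lies on 3R at 30765926 to 30789202, plus strand. Normalized counts were 1960.4, 1549 and 1302 in mutant testes, against 2098, 1491 and 1609.8 in control testes. The ranges overlapped, and the log2 difference was -0.11 (SE 0.19, edgeR adjusted p = 0.686; 95% interval of the fold 0.681 to 1.26). An antisense RNA gene, asRNA:CR45189, overlaps 315 exonic bases of zfh1 on the opposite strand, and the counting used strand.

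chinmo encodes a BTB zinc finger factor of cyst stem cells, also present in the early germline. It lies on 2L at 1651258 to 1704682, plus strand, with the longest exonic sequence of the 10 genes, 12618 bases. Normalized counts were 21423, 12119 and 9288 in mutant testes, against 19958, 12366 and 13979.7 in control testes. The spread within a genotype was far larger than the difference between genotypes, with coefficients of variation of 44.5% in the mutant and 25.9% in the control. The log2 difference was -0.11 (SE 0.32, edgeR adjusted p = 0.818), with a 95% interval of the fold of 0.544 to 1.57, so a change of moderate size in either direction was not detectable with these libraries.

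eya and so mark later cyst cells. eya encodes Eyes absent, a transcriptional coactivator and phosphatase, and so encodes the Six-family homeodomain factor Sine oculis that binds it. eya (2L, 6527447 to 6546976, minus strand) had normalized counts of 4538, 5172 and 5428 in mutant testes, against 5146, 5773 and 5288 in control testes. The difference of -0.10 (SE 0.096, edgeR adjusted p = 0.478) left a 95% interval of the fold of 0.797 to 1.09. so (2R, 7419350 to 7434872, plus strand) had 1557, 1665 and 1819 in mutant testes, against 1413, 1749 and 1435 in control testes. Its difference was 0.13 (SE 0.11, edgeR adjusted p = 0.416; 95% interval of the fold 0.909 to 1.32). Ranges of both genes overlapped between genotypes.

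**Figure D2:**
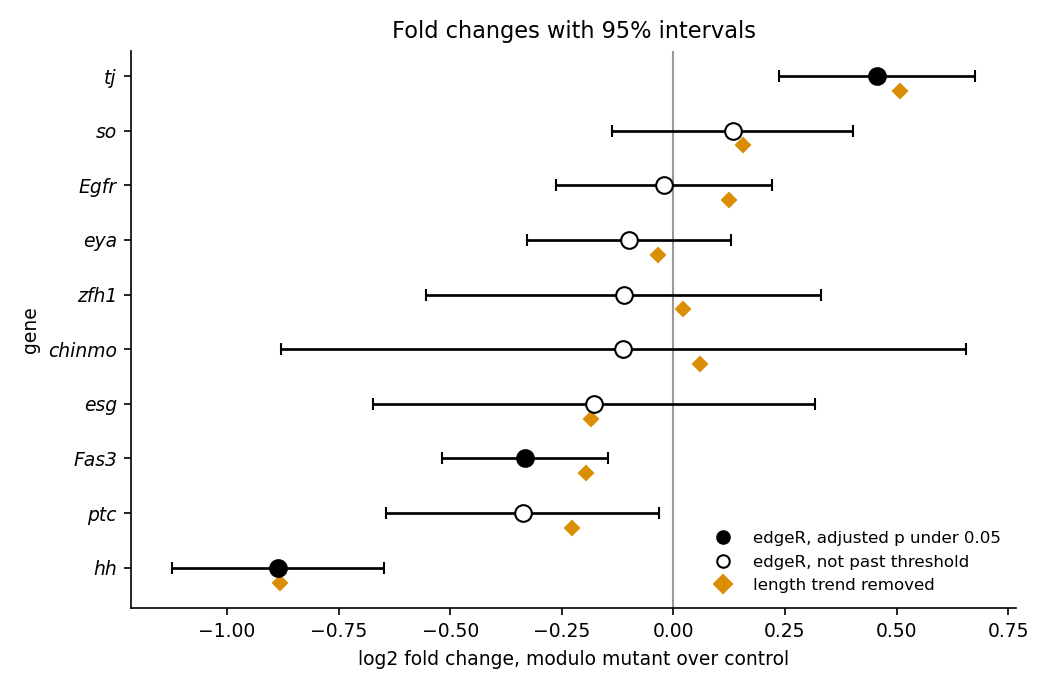
Log2 fold change of the mutant over the control for the 10 genes (horizontal axis), with the 95% interval of the quasi-likelihood fit. hh and Fas3 lie below 0 and tj above, the intervals of the other 7 genes except ptc include 0, and hh stands farthest from 0 at -0.89.

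The last group holds the receptors through which cyst cells receive signals. ptc encodes Patched, the Hedgehog receptor, which is also a transcriptional target of the pathway, and lies on 2R at 8649649 to 8665223, plus strand. Normalized counts were 1323, 1266 and 1063 in mutant testes, against 1756, 1369 and 1491 in control testes. The lowest control value was just above the highest mutant value. The log2 difference was -0.34 (SE 0.13, edgeR adjusted p = 0.0881), which did not pass the threshold. With the replicate number as a block the same difference of -0.34 had an adjusted p of 0.0243 (45.6% of all tested genes passed in that fit), so ptc was called only in the blocked fit.

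Egfr, on 2R at 21522420 to 21559977 (plus strand), encodes the epidermal growth factor receptor. It had normalized counts of 769.7, 815 and 752 in mutant testes, against 784, 709 and 877 in control testes. The groups overlapped and the difference was -0.02 (SE 0.10, edgeR adjusted p = 0.898). The 95% interval of the fold, 0.834 to 1.17, gives the range of changes that these libraries leave possible.

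Levels between genes were compared per length, as CPM (counts scaled to library size) per kilobase of exon. eya was highest, at 14.4 ± 1.31 in mutant testes and 15.4 ± 0.938 in control testes, and Egfr was lowest, at 1.18 ± 0.0492 in mutant testes and 1.20 ± 0.128 in control testes. chinmo (11.9 ± 5.30 in the mutant, 12.9 ± 3.34 in the control) came next after eya, with SD intervals that overlapped those of eya in both genotypes. hh was at 5.40 ± 0.387 in the mutant and 9.98 ± 0.864 in the control. Its rank was 4 in the mutant, below so (6.35 ± 0.496), and 3 in the control, above so (5.79 ± 0.710). Within the mutant, eya with chinmo, chinmo with so, zfh1 with esg, and esg with ptc were neighbours in the order whose SD intervals overlapped. Within the control this held for eya with chinmo, chinmo with hh, so with Fas3, ptc with esg, esg with zfh1, and tj with Egfr.

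Replicates of a genotype differed far more for some of these genes than for others. Deviations from the genotype mean (log2) of chinmo were 0.676, -0.146 and -0.530 in the 3 mutant libraries, against 0.401, -0.289 and -0.112 in the 3 control libraries. Those of zfh1 were 0.310, -0.0294 and -0.281 in the mutant, against 0.292, -0.201 and -0.0905 in the control. esg, with only 2273 exonic bases, had 0.365, 0.124 and -0.489 in the mutant, against 0.0703, -0.142 and 0.0721 in the control. Egfr (6947 bases) had -0.0164, 0.0661 and -0.0497 in the mutant and Fas3 (6612 bases) 0.0143, 0.025 and -0.0394, so large deviations were not confined to long genes or shared by all of them. hh had no deviation beyond 0.108 in size in the mutant and 0.145 in the control. The libraries also differed in their trend over gene length, which the slope per doubling of exonic length describes. It was 0.0817, -0.0469 and -0.121 in mutant libraries, against 0.0913, -0.00353 and -0.00166 in control libraries, over 11331 genes. With the trend removed, the differences of chinmo (0.06), zfh1 (0.02) and Egfr (0.13) changed sign, none past the threshold, whereas hh was at -0.88 (adjusted p = 0.000736) and tj at 0.51 (adjusted p = 0.0107).

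**Figure D3:**
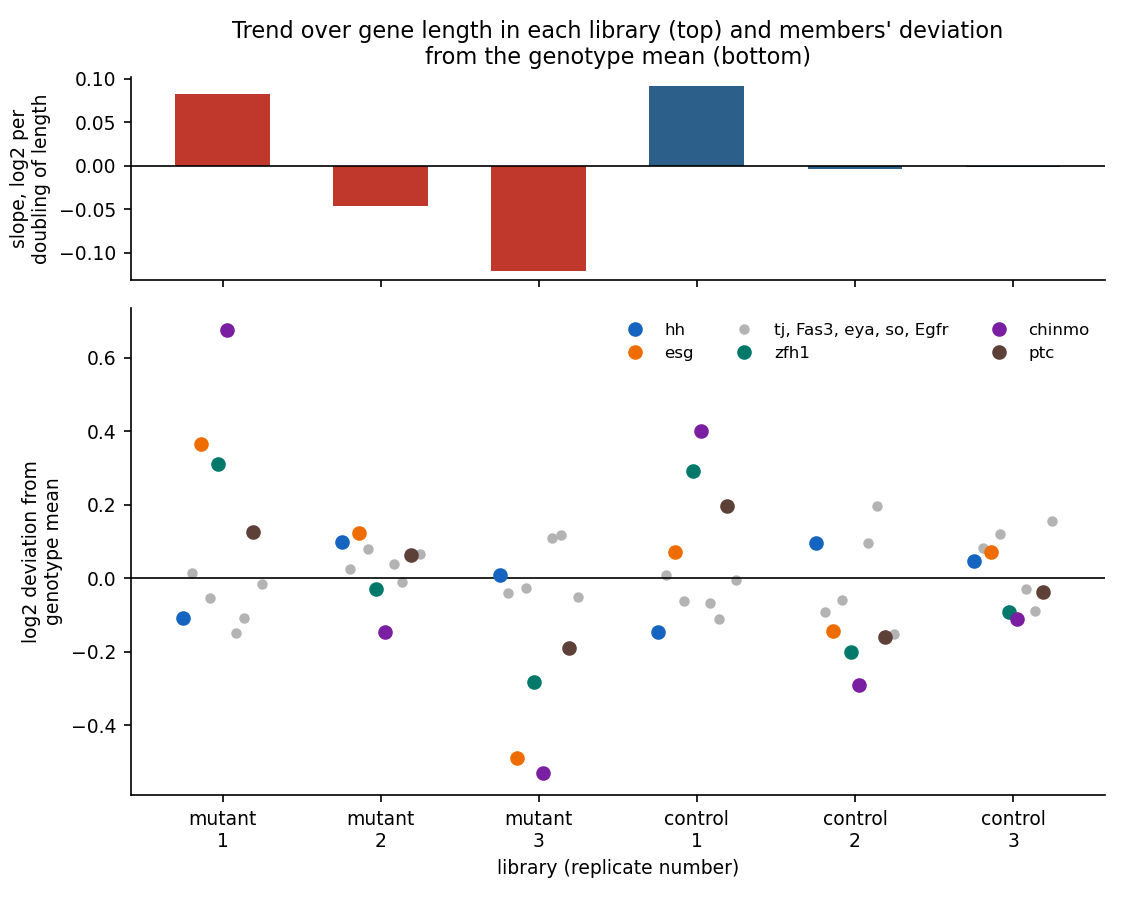
Top, slope of the log2 deviation of genes per doubling of exonic length in each library; bottom, log2 deviation of the 10 genes from the mean of their genotype in that library, mutant libraries left of control libraries. chinmo deviates most, by 0.676 in mutant replicate 1 and -0.530 in mutant replicate 3, the libraries with slopes of 0.0817 and -0.121. In the same libraries esg (2273 exonic bases) deviates by 0.365 and -0.489, and Egfr (6947 bases) by -0.0164 and -0.0497.

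Other genes of the same cells and pathways were taken from lists of known members. Over all 14059 tested genes the shares were 14.5% higher and 17.8% lower, and the unblocked edgeR counts of these lists are read against them. The blocked fit called 3122 of the 14059 higher and 3287 lower, or 45.6% in either direction. DESeq2 called 2481 higher and 2730 lower, and limma-voom 1974 higher and 2514 lower. No share over all genes is given at an unadjusted p, so those counts are descriptions only. Of 11 tested other hub genes, 0 were higher and 3 were lower, with a median of -0.14. At an unadjusted p under 0.05 the count higher was 1, DESeq2 called 1 and limma-voom 0, while the blocked fit called 2 higher (shg and magu) and 4 lower. drm, an odd-skipped family zinc finger gene, had normalized counts of 197, 153 and 156 in mutant testes, against 1319, 1185 and 1261 in control testes (-2.89, SE 0.13, edgeR adjusted p = 3.0e-05). Its relative bowl, which promotes hub fate, fell by 0.86 (SE 0.082, edgeR adjusted p = 0.000434). CadN, which encodes the N-cadherin of hub cell junctions, fell by 0.59 (SE 0.087, edgeR adjusted p = 0.00275), but was at -0.36 (adjusted p = 0.107) with the length trend removed. upd1, the JAK-STAT ligand of the hub, had a difference of -0.39 that was not called (adjusted p = 0.144). It was called with the replicate block (-0.41, adjusted p = 0.00913).

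Of 19 tested other cyst lineage genes, 0 were higher and 1 was lower, beside 14.5% and 17.8% of all tested genes, with a median of 0.01. At an unadjusted p under 0.05 the count higher was 1, DESeq2 called 1 and limma-voom 0. The blocked fit called 2 higher and 2 lower, beside 3122 and 3287 of all 14059 tested genes. The gene that fell, ken, encodes a transcriptional repressor. It had normalized counts of 4079, 3092 and 2861 in mutant testes, against 5776, 4830.4 and 4865 in control testes (-0.62, SE 0.15, edgeR adjusted p = 0.0199). Its call was lost without mutant replicate 2 (adjusted p = 0.0904) or 3 (0.0578), or control replicate 1 (0.0644) or 3 (0.0530).

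Of 16 tested other Hedgehog pathway genes, 2 were higher and 0 lower, beside 14.5% and 17.8% of all tested genes, with a median of 0.07. The blocked fit and DESeq2 each called 3 higher, beside 3122 and 2481 genes higher among all 14059 tested. The count lower was 0 also at an unadjusted p under 0.05, with DESeq2 and with limma-voom. fu, a kinase that relays the signal, had normalized counts of 479.5, 396 and 385 in mutant testes, against 295, 239 and 245 in control testes (0.69, SE 0.14, edgeR adjusted p = 0.00883). Its call was lost in lane 1 alone (0.62, adjusted p = 0.0556). Su(fu), which restrains the pathway's transcription factor, was 0.29 higher (SE 0.070, edgeR adjusted p = 0.0199), a call kept in 14 of 21 alternatives and lost when any library other than mutant replicate 1 was left out. smo, the signal transducer, was at 0.00 (adjusted p = 0.983) and ci, the transcription factor, at 0.07 (adjusted p = 0.672).

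Of 27 tested other EGFR pathway genes, 2 were higher and 5 lower, beside 14.5% and 17.8% of all tested genes, with a median of -0.03. The blocked fit called 3 higher and 7 lower, beside 3122 and 3287 of all 14059 tested genes. rho, an intramembrane protease that releases EGF ligands, had normalized counts of 63.1, 60.6 and 71.5 in mutant testes, against 288, 236 and 276 in control testes (-2.03, SE 0.15, edgeR adjusted p = 0.000133). stet, the related protease used by the germline, had 169, 192 and 206 in mutant testes, against 375, 321 and 421 in control testes (-0.98, SE 0.14, edgeR adjusted p = 0.00253). aos, a secreted inhibitor of the receptor, was at -0.74 (SE 0.14, edgeR adjusted p = 0.00676). rl, the ERK kinase, was at -0.39 (adjusted p = 0.0225), lost with the length trend removed (-0.22, adjusted p = 0.352) and without control replicate 2 (0.0617) or 3 (0.0898). kek1, another inhibitor, was at -0.36 (adjusted p = 0.0182). Of the 2 genes higher, vn, an EGF ligand, was at 0.61 (adjusted p = 0.0279) and dos, an adaptor, at 0.36 (adjusted p = 0.0114). Both were lost without mutant replicate 2 (vn 0.0594, dos 0.0647). The vn call was kept in 15 of 21 alternatives. It was also lost without control replicate 2 (0.0994) or 3 (0.0978), in lane 1 (0.0732) or lane 3 (0.0776) alone, and with total counts only (0.0509). spi, the main germline ligand, had a difference of -0.17 that did not pass (adjusted p = 0.166).

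**Figure D4:**
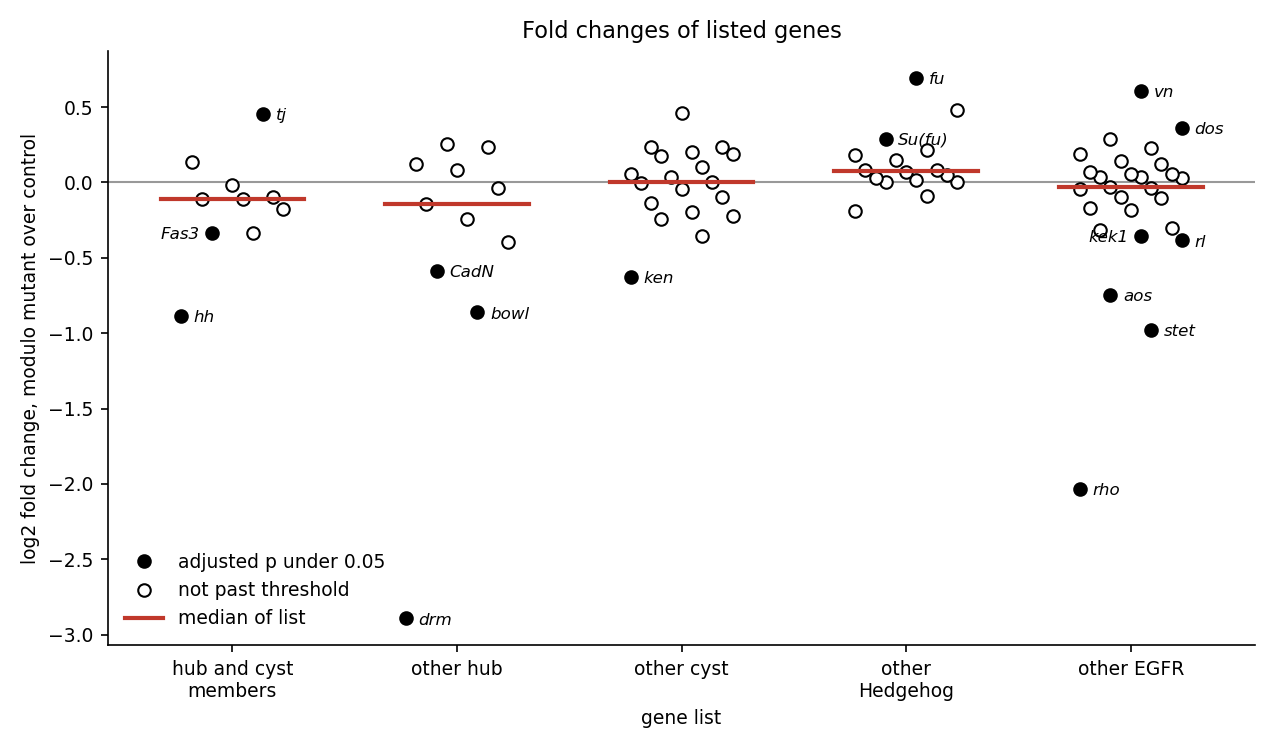
Log2 fold change of the mutant over the control for the 10 genes and 4 lists of other genes; filled circles passed an adjusted p of 0.05, open circles did not, and red lines are list medians. The medians lie between -0.14 and 0.07, while drm (-2.89), rho (-2.03), stet (-0.98), hh (-0.89) and bowl (-0.86) lie far below.

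Markers of other cell types were read beside these results. Of all 14059 tested genes, 14.5% were called higher and 17.8% lower, and 3122 and 3287 genes with the block. Called counts of the marker lists are read against those shares, and in lists this short they are no result about a cell type by themselves. The summed level of 10 muscle sheath genes was 1232 to 1749 CPM in mutant libraries, against 1596 to 1812 in control libraries, with 0 genes called (unadjusted p under 0.05 for 1 higher and 2 lower, DESeq2 2 lower, limma-voom 0, blocked fit 1 higher and 1 lower). The most abundant of them, Act87E, was at -0.25 (adjusted p = 0.0735). The 5 neuron genes summed to 24.3 to 25.9 in the mutant and 39.2 to 46.4 in the control, with 2 lower (brp at -2.22 and para at -1.43, edgeR adjusted p = 0.00495 and 0.00596) and 0 higher (0 also at an unadjusted p under 0.05, with DESeq2, with limma-voom and with the block). By mean normalized count, nSyb was ahead of brp in the mutant (1531 and 410.2), and brp was ahead of nSyb in the control (1920 and 1649). nSyb was at -0.11 (adjusted p = 0.669). The 5 hemocyte genes summed to 81.9 to 93.3 in the mutant and 87.3 to 93.0 in the control, with 0 called. The count was 0 also at an unadjusted p under 0.05, with DESeq2 and with limma-voom. The blocked edgeR fit, however, called Hml lower (-0.33, adjusted p = 0.0475). The 4 fat body genes summed to 101 to 137 in the mutant and 101 to 129 in the control, with 0 called in any of these fits.

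The 8 early germline genes had a median of 0.42 and 2 were called higher (nos at 0.84 and aub at 0.71, edgeR adjusted p = 0.00354 and 0.00549). Of all tested genes, 14.5% were called higher and 17.8% lower, and 3122 and 3287 of 14059 with the block. In the early germline list the count higher was 5 at an unadjusted p under 0.05, 5 with the block and 4 with DESeq2. It was 2 with limma-voom, and 0 were lower in each. With the block, the genes added were vas (0.43), zpg (0.40) and bam (0.47). The sum of the list was 148 to 214 CPM in the mutant and 149 to 177 in the control, and its most abundant gene, bgcn, averaged 9174 normalized counts in the mutant and 9960 in the control (-0.12, adjusted p = 0.647). The 11 spermatocyte genes summed to 1323 to 1992 in the mutant and 1584 to 1830.3 in the control, with 2 higher and 1 lower (4 higher and 1 lower with the block). The 11 spermatid genes summed to 11261 to 12044 in the mutant and 9459 to 10680.0 in the control. Of them, 2 were higher (Mst77F at 0.57 and ProtA at 0.88, edgeR adjusted p = 0.00427 and 0.00261). ProtB was the 1 lower (-0.75, edgeR adjusted p = 0.00269). The most abundant, Mst77F, averaged 331760 normalized counts in the mutant and 223970 in the control. The paper also reports more Mst77F in total RNA of the mutant, so this sum is not a measure of spermatid number alone.

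Of 4 tested genes of the ejaculatory duct and bulb, 1 was higher (Est-6 at 1.72, edgeR adjusted p = 0.00208) and 2 were lower (Peb at -2.33, adjusted p = 0.000716, and PebIII at -0.89, adjusted p = 0.0236). Their sum was 60.8 to 98.9 CPM in the mutant and 56.6 to 62.8 in the control. The blocked fit and DESeq2 each called 2 higher and 2 lower, and limma-voom 1 higher and 2 lower. Of all tested genes, 14.5% were higher and 17.8% lower in the unblocked edgeR fit. Dup99B was at 3.30 (edgeR adjusted p = 0.0526) and at 2.98 in the blocked edgeR fit (adjusted p = 0.0328). Its normalized counts were 220, 113 and 13.0 in mutant testes, against 9.03, 2.04 and 24.2 in control testes. The 13 tested accessory gland genes summed to 105 to 252 in the mutant and 44.1 to 392 in the control, with 1 higher, Acp33A, which had normalized counts of 260.5, 96.1 and 307 in mutant testes, against 2.01, 0 and 4.21 in control testes (edgeR adjusted p = 0.000845). No listed gene was at 0 in all libraries. The part of other cells in the differences of hh, Fas3 and tj was not tested.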

How the data were processed

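Testes of 3 modulo mutant and 3 control replicates were each sequenced in 3 lanes (total RNA, strand-specific). The authors used STAR 2.7.1a for alignment to the BDGP6 (dm6) assembly and strand-aware featureCounts on FlyBase gene models, with multi-mapping pairs divided among positions, so the deposited values are estimated counts, not normalized. A further deposited table held the same values and was not used. Here lanes were summed and rounded to whole numbers, and a gene was tested where 3 or more of the 6 samples held 10 or more counts (14059 of 17575). Testing used edgeR 4.0.16 quasi-likelihood fits with TMM scaling in R 4.3.3 and Benjamini-Hochberg adjustment over all tested genes, at 0.05. Log2 fold changes are mutant over control. DESeq2 1.42.0, ashr 2.2.63, limma 3.58.1, other scalings, single lanes, omitted replicates, removal of a length trend and a replicate block were alternatives. Scripts were tested on simulated data. Totals ranged from 87119206 to 107435749 counts. The replicates are labelled biological, without saying what a replicate number shares. Deviations of same-numbered samples correlated at 0.541, 0.570 and 0.164, all over 0.1, so the block was used as a paired fit. Between samples of different number the correlations ran from -0.571 to 0.119. Mutant replicate 1 with control replicate 3 (0.119) also passed 0.1, so that cut does not establish a pairing. Calls made only with the block depend on it. Exonic lengths and positions came from the Ensembl annotation of the same assembly, and levels per kilobase used merged exons. The 10 genes and all lists were chosen with earlier results of these data known. Named genes were all members, mod and, from each list, up to 6 called genes with the largest change, with uncalled ligands and transducers of the Hedgehog and EGFR pathways allowed. upd1, kek1 and the called marker genes were added after their values were seen.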

Additional observations from a re-analysis of the deposited data

How the results depend on the processing

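Of 588 values under 21 alternatives, 528 were rated the same. For single genes this meant the same direction and side of the threshold, and for counts a value within 1.5 times. For the median of the 10 genes it meant a shift under the pooled SD between replicates (0.148), whatever its sign. For hh, drm, bowl, rho, stet and aos, direction and call held under every alternative. tj was 0.35 in lane 1 alone and 0.41 to 0.51 with single libraries left out, and Fas3 was -0.19 with the length trend removed and -0.38 to -0.30 with single libraries left out. With the replicate block, ptc (-0.34) was called, 3122 genes were higher and the 4 other lists had 10 genes higher, and no other call on the 10 genes changed. The 4 other lists, with 4 higher and 9 lower in the analysis reported, had 2 higher with total counts only, 7 with DESeq2, 7 with ashr shrinkage, 2 in lane 1 and 12 with the length trend removed. The length trend turned zfh1 (0.021), chinmo (0.061) and Egfr (0.13). With single libraries left out, zfh1 ranged from -0.28 to 0.044, chinmo from -0.53 to 0.12, esg from -0.37 to 0.026 and Egfr from -0.10 to 0.055. Calls then numbered 2611 to 5895 (919 to 2791 higher, 1692 to 3104 lower), lowest without mutant replicate 2 and 2754 without control replicate 3. The median of the 10 genes was -0.31 to 0.0088, and the other lists had 1 to 8 higher and 6 to 14 lower. The cause of these shifts was not tested. Of the genes called, the share that was higher in the mutant was 45.0% with TMM and 36.1% with total counts only. With 3 replicates each, differences as small as those of eya, so and Egfr lie within the intervals given.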

Other observations

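The genes whose normalized counts ran most like those of tj over the 6 samples, among 11207 genes compared, were Gbeta5 (Pearson r = 0.998), CR14033 (0.997) and CR46170 (0.997), and those most like Fas3 were cysu, CG42521 and CG13102 (0.997 each). These are descriptions over 6 libraries that share the genotype difference, and 438 genes reached an r over 0.95 with tj and 348 with Fas3.

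hh fell more than Fas3, the other hub gene that was called. The log2 ratio of hh to Fas3 was -1.35, -1.15 and -1.18 in mutant testes, against -0.830, -0.486 and -0.708 in control testes. The log2 ratio of tj to eya was -2.88, -2.94 and -3.11 in mutant testes, against -3.53, -3.69 and -3.39 in control testes. Neither of these ratios overlapped between genotypes. The ratio of tj to so did, with -1.34, -1.30 and -1.54 in mutant testes, against -1.67, -1.97 and -1.51 in control testes, as did that of hh to esg, with 0.809, 1.26 and 1.78 in mutant testes, against 1.73, 2.19 and 1.92 in control testes. These ratios were among 6 formed after the values were seen, and no test is given.

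Called genes were not spread evenly over chromosomes. On 3R, which carries mod, hh and zfh1, 12.5% of tested genes were higher and 20.9% lower in the mutant. On 3L, the other arm of the same chromosome, which carries none of them, the shares were 13.4% higher and 20.4% lower. On 2L they were 14% higher and 18.1% lower, and on 2R 13.7% higher and 17.2% lower. On X 20.6% were higher and 10.8% lower, and of 69 tested genes on Y 24.6% were higher and 7.25% lower. zfh1 lies 1262.86 kb and hh 8910.15 kb from mod. The part of linkage to mod in these shares was not tested.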
